A study of Homo sapiens with 12 samples.

Results

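TFIIIB, SNAPc and MAF1 are the factors that place RNA polymerase III (Pol III) on its genes or keep it off them, and the messenger RNAs of their 10 genes were followed in all 12 libraries of the study. The genes were chosen by name from the make-up of the complexes and not by their values, though earlier results of these data were known. These were the TFIIIB subunits BRF1, BRF2, BDP1 and TBP, the SNAPc subunits SNAPC1, SNAPC2, SNAPC3, SNAPC4 and SNAPC5, and the repressor MAF1. They are 10 of 34318 genes for which a transcript of the table could be matched. All libraries came from HEK293T, a human embryonic kidney line that carries adenoviral genes and a viral large T antigen. In one experiment cells were transfected with a control siRNA (siControl) or with an siRNA against POLR3A (siPOLR3A), the largest subunit of Pol III, and collected after 2 days. In the other, cells were exposed for 4 hours to the vehicle DMSO at 0.1% or to ML60218, a small-molecule inhibitor of Pol III, at 25 µM. Each of the 4 groups had 3 libraries of strand-specific messenger RNA sequencing. The labels do not say that the libraries of a group came from separate cultures, so p-values measure the spread between these samples, which may be technical.

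TFIIIB is the initiation factor that touches DNA next to the start site and recruits Pol III. At transfer RNA genes it is built from TBP, BDP1 and the TFIIB-like subunit BRF1, and at the small nuclear RNA genes that Pol III reads BRF2 takes the place of BRF1. SNAPc binds the proximal sequence element of small nuclear RNA genes, for Pol II as well as for Pol III, while MAF1 binds Pol III and lowers its transcription when nutrients or growth signals fail. TBP also serves Pol I, within the factor SL1, and Pol II, within TFIID.

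The level of a gene is given as CPM, the estimated reads of its transcripts scaled to the size of the library with TMM factors. Changes are log2 differences of treated over control from edgeR's quasi-likelihood test. A gene was called where its p, adjusted by Benjamini and Hochberg over all genes tested, was below 0.05. Libraries held between 37008325 and 49479476 estimated reads. POLR3A itself fell with siPOLR3A from 90.8 ± 3.56 to 17.6 ± 2.65 CPM (SD, n = 3 per group; edgeR adjusted p = 1.94e-05) and was also lower after ML60218, at 86.4 ± 2.2 against 113 ± 4.99 CPM (log2 -0.38, edgeR adjusted p = 0.000229, or -0.17 with unmatched transcripts placed by their neighbours in the table). The labels call the cells epithelial. KRT18 lay between 24.5 and 36.7 TPM, whereas EPCAM and CDH1 stayed at or below 4.51 TPM, KRT19 at or below 0.167 TPM, and the neurofilament gene NEFL between 48.8 and 82.8 TPM. Of 2 markers of blood cells, PTPRC was listed at 0 in all 12 libraries and CD74 lay between 1.43 and 2.04 TPM.

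Of the 10 genes, 9 passed the filter on low counts in both comparisons. BDP1, the SANT-domain subunit of TFIIIB (chromosome 5, 71455615 to 71567820, plus strand, GRCh38), did not: only 1 of its 6 annotated transcripts was in the table and it was listed at 0 in every library. The other 5 were not analysed here, so no level of BDP1 can be given. SNAPC4, the largest SNAPc subunit, passed but was poorly determined, as described with its values.

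Promoter sequences were available for 7 of the 10 genes in the RefSeq table (GRCh38.p14). The 30 bases directly before an annotated start, read 5′ to 3′ on the strand of the gene, are shown for those of the 7 that differed after siPOLR3A, because these genes moved in opposite directions.
TBP: agtgacattatcaacgcgcgccaggggttc
SNAPC1: tcctgggcgaccaccgctggctagtccgtt
SNAPC2: ccccgtagctccgcccatcggagaagcgac
SNAPC3: tgcaggcttttgcaggggaaggagtggggc
SNAPC5: ggcgtcatcaccgagtgccgggccgacagc
The TBP bases are chr6:170554339-170554368 on the plus strand. Those of SNAPC1 are chr14:61762390-61762419 and those of SNAPC2 chr19:7920308-7920337, both on the plus strand. SNAPC3 gave chr9:15422846-15422875 on the plus strand and SNAPC5 chr15:66497763-66497792 on the minus strand. In the longer window from 250 bases before to 50 after the start, searched on both strands, the TATA box letters TATAAA were absent from every one of the 12 starts listed for the 7 genes, against 11.5% of all 35116 promoters of that length that held them. GGAAGT, the core bound by ETS factors, occurred at the starts shown for TBP, SNAPC2 and SNAPC3 (22.8% of all promoters). CCAAT occurred at those of TBP and SNAPC2 (34.6%), and BDP1 held TGACGTCA, the full CRE site (1.85%). Among the starts not shown, a BRF1 start held GGAAGT and a different BRF1 start held CCAAT. The other SNAPC2 start and the remaining ones held neither. A match describes letters only.

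Per unit of transcript length (TPM), the 9 measured genes differed widely. In siControl cells the means ran from SNAPC3 at 51.5 TPM and MAF1 at 43.4 through TBP at 33.0 and SNAPC5 at 32.6, SNAPC1 at 21.7 and BRF1 at 13.5 to BRF2 at 5.88, SNAPC2 at 4.30 and SNAPC4 at 2.69. The ranges of TBP and SNAPC5 overlapped, as did those of SNAPC2 and SNAPC4, and all other neighbours in this order were apart. These totals include transcripts that the annotation marks as targets of nonsense-mediated decay. SNAPC3-206 and SNAPC3-205 held 48.15% and 15.12% of SNAPC3 TPM over the 12 libraries, and SNAPC5-204 held 20.54% of SNAPC5 TPM. The protein-coding SNAPC3-202 stood at a mean of 19.7 TPM in siControl cells. BRF1 stood above BRF2 in every library, with a TPM ratio of 2.29 ± 0.0713 in siControl and 2.39 ± 0.337 in DMSO cells (SD, n = 3). In siPOLR3A cells the order began with MAF1 at 53.2 and TBP at 45.0 TPM, and SNAPC3, at 27.8 TPM, overlapped SNAPC5 at 27.7 TPM. After ML60218, TBP (53.9 TPM), SNAPC3 (49.4 TPM) and MAF1 (45.4 TPM) followed each other with overlapping ranges.

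**Figure D1:**
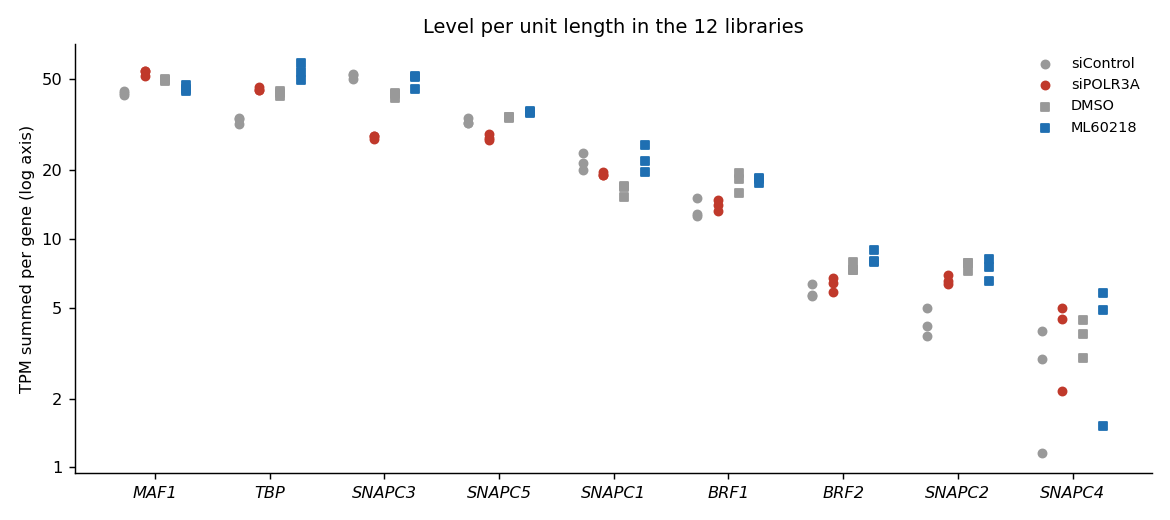
TPM per gene on a log axis for the 9 genes with values, 1 point per library (circles for the siRNA experiment, squares for the compound experiment, controls in grey). SNAPC3 drops from the top of the order in siControl cells to the level of SNAPC5 in siPOLR3A cells, and SNAPC4 has the widest scatter within groups.

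After siPOLR3A, 6 of the 9 genes were called, 3 higher (TBP, MAF1, SNAPC2) and 3 lower (SNAPC3, SNAPC1, SNAPC5), while 56.6% of all genes tested were called in this comparison, 27.4% higher and 29.2% lower. The share called is near that of all genes and is no result about the group. In bulk RNA, fewer cells of a kind and less RNA per cell cannot be told apart. The median log2 change of the 9 was 0.07, beside 0.01 for all genes. The groups did not overlap in CPM for the same 6 genes, against 63.4% of all genes.

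TBP, the subunit common to all 3 polymerase systems, rose. Its siControl libraries held 34.2, 35.3 and 34.5 CPM and the siPOLR3A libraries 47.0, 48.3 and 47.8 CPM. Every siPOLR3A library lay above every siControl library. The log2 change was 0.46 (SE 0.0347, edgeR adjusted p = 5.91e-08), a rise of 37.6%.

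BRF1 and BRF2, the alternative TFIIB-like subunits, were not called. BRF1 measured 24.8, 26.3 and 23.5 CPM in siControl and 25.4, 22.3 and 23.5 CPM in siPOLR3A cells, a log2 change of -0.07 with a 95% interval from -0.20 to 0.06 (edgeR adjusted p = 0.364). After correction for GC content and length, the same gene gave -0.20 and was called (edgeR adjusted p = 0.00787), and on TPM its sign turned to 0.06. BRF2 measured 9.81, 11.6 and 9.46 CPM against 9.68, 10.7 and 11.9 CPM, a log2 change of 0.07 with an interval from -0.14 to 0.27 (edgeR adjusted p = 0.579), which became -0.01 without siPOLR3A replicate 3. The groups overlapped for both genes.

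MAF1, the repressor, rose as well. The siControl libraries held 42.0, 44.6 and 45.9 CPM and the siPOLR3A libraries 53.8, 52.5 and 54.3 CPM, without overlap. The log2 change was 0.28 (SE 0.0380, edgeR adjusted p = 2.52e-05), and 0.13 with GC and length corrected (edgeR adjusted p = 0.00757).

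Within SNAPc, 1 subunit rose, 3 fell and 1 was not called. SNAPC3, a subunit that contacts the proximal sequence element and is needed for the core of the complex, fell most. It went from 94.4, 95.8 and 99.2 CPM in siControl to 49.8, 51.0 and 52.0 CPM in siPOLR3A cells. The groups were far apart compared with their spread. The log2 change was -0.92 (SE 0.0317, 95% interval -0.99 to -0.85, edgeR adjusted p = 1.73e-11). SNAPC1, which joins SNAPC3 and SNAPC4 in that core, fell from 41.0, 37.5 and 38.4 to 34.9, 33.8 and 33.2 CPM, a log2 change of -0.20 (SE 0.0433, edgeR adjusted p = 0.00146). On log2 TPM the change of SNAPC1 was -0.17 and no longer called (limma adjusted p = 0.0651), and -0.13 with GC and length corrected. SNAPC5, the smallest subunit, fell from 20.9, 23.2 and 21.3 to 17.7, 19.4 and 19.1 CPM, a log2 change of -0.22 (SE 0.0594, edgeR adjusted p = 0.00607). SNAPC2, the least abundant of these 4 subunits, rose from 3.41, 2.89 and 3.08 to 4.71, 4.49 and 4.31 CPM, a log2 change of 0.53 (SE 0.116, edgeR adjusted p = 0.00145), or 0.34 with GC and length corrected. None of these 4 subunits overlapped between the groups.

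SNAPC4, the DNA-binding subunit with Myb repeats (chromosome 9, 136375577 to 136400168, minus strand), varied more within groups than between them. Its siControl libraries held 3.59, 13.0 and 9.54 CPM and its siPOLR3A libraries 15.3, 6.95 and 14.3 CPM. The log2 change was 0.48 with an interval from -1.14 to 2.10 (edgeR adjusted p = 0.542). Directly beside the 2 matched SNAPC4 transcripts, the table holds 5 transcripts that could not be matched to a gene. In the siControl library with the least SNAPC4 (1.15 TPM) these 5 together were at 12.4 TPM, against 8.79 and 9.67 TPM in the others. Whether reads moved between these transcripts was not tested.

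**Figure D2:**
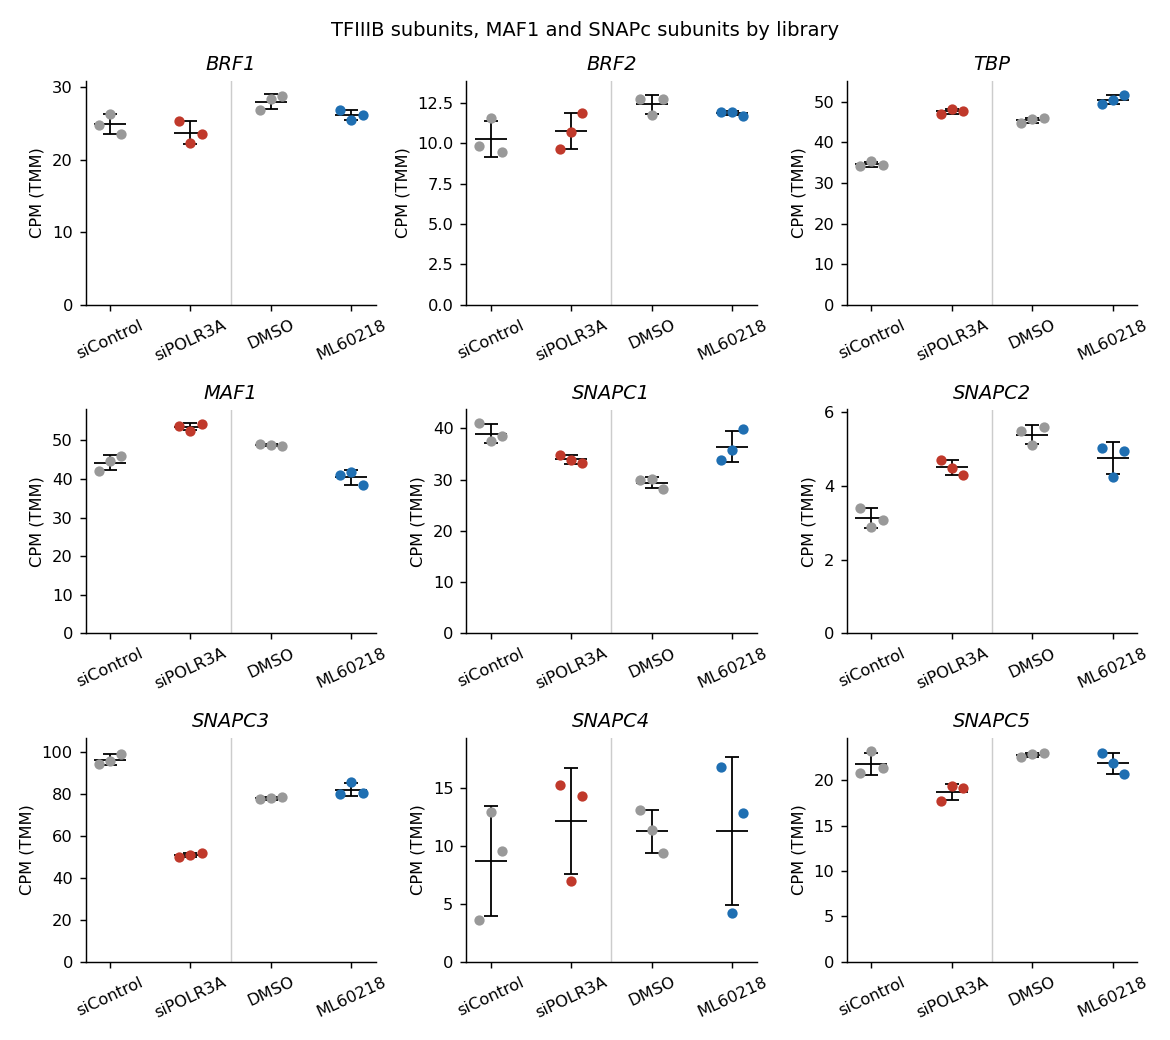
CPM in each library for the 9 genes, with the mean (horizontal line) and SD (bars) of the 3 libraries of a group; axes start at 0 and the vertical line divides the experiments. SNAPC3 falls from about 96.5 to 50.9 CPM after siPOLR3A, TBP rises from 34.7 to 47.7 CPM, and MAF1 and SNAPC1 move in opposite directions in the 2 experiments.

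Ratios between the genes were also taken within each library. The TPM ratio of SNAPC3 to SNAPC1 was 2.39 ± 0.156 in siControl and 1.45 ± 0.0571 in siPOLR3A cells, and that of SNAPC3 to SNAPC5 was 1.58 ± 0.0905 and 1.01 ± 0.0287 (SD, n = 3). The ratio of TBP to BRF1 was 2.46 ± 0.215 and 3.23 ± 0.227, and that of MAF1 to TBP 1.32 ± 0.0459 and 1.18 ± 0.0364. In DMSO and ML60218 cells the ratio of SNAPC3 to SNAPC1 was 2.605 ± 0.106 and 2.22 ± 0.199, and that of SNAPC3 to SNAPC5, which went the other way, 1.25 ± 0.0269 and 1.38 ± 0.0847. There the ratio of TBP to BRF1 was 2.45 ± 0.294 and 2.99 ± 0.176, and that of MAF1 to TBP 1.14 ± 0.0266 and 0.846 ± 0.0649. These are ratios of gene totals, which for SNAPC3 and SNAPC5 include transcripts annotated for nonsense-mediated decay, and are given without a test.

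After ML60218, 3 of the 9 genes were called: TBP and SNAPC1 higher and MAF1 lower, while 39.0% of all genes tested were called, 18.1% higher and 20.9% lower. The groups did not overlap for 5 of the 9, these 3 with SNAPC2 and SNAPC3, against 51.9% of all genes. The median log2 change of the 9 was -0.06, beside 0.01 for all genes.

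TBP rose from 44.7, 45.7 and 45.9 CPM in DMSO to 49.5, 50.4 and 51.6 CPM in ML60218 cells, without overlap. Its log2 change was 0.15 (SE 0.0397, edgeR adjusted p = 0.0130), and the call was lost without DMSO replicate 1 (0.14, edgeR adjusted p = 0.0647). On log2 TPM it was 0.31, or 0.18 relative to the median of all genes, which that setting moved to 0.14. MAF1 fell from 49.02, 48.85 and 48.69 to 41.0, 41.9 and 38.4 CPM, without overlap. The log2 change of MAF1 was -0.27 (SE 0.0452, edgeR adjusted p = 0.00145). On log2 TPM it was -0.12 and not called (limma adjusted p = 0.115), which is -0.26 relative to the median of all genes. BRF1, at 26.8, 28.3 and 28.8 against 26.8, 25.4 and 26.1 CPM, gave -0.10 (interval -0.21 to 0.01, edgeR adjusted p = 0.148). BRF2, at 12.8, 11.7 and 12.8 against 11.9, 12.0 and 11.7 CPM, gave -0.07 (interval -0.21 to 0.08, edgeR adjusted p = 0.468). Neither BRF gene was called. On log2 TPM they gave 0.02 and 0.15, or -0.12 and 0.007 relative to the median of all genes.

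Of the SNAPc subunits, only SNAPC1 was called after ML60218. It rose from 29.97, 30.06 and 28.27 to 33.9, 35.7 and 39.9 CPM, without overlap, a log2 change of 0.31 (SE 0.0632, edgeR adjusted p = 0.00406). SNAPC3 measured 77.5, 77.9 and 78.7 CPM in DMSO and 79.9, 85.6 and 80.6 CPM in ML60218 cells, a log2 change of 0.07 with an interval from -0.01 to 0.16 (edgeR adjusted p = 0.168). Its call depended on the scaling: it was called with total-count scaling (0.14, edgeR adjusted p = 0.0200), upper-quartile scaling (0.11, 0.0385) and on log2 TPM (0.21, limma adjusted p = 0.0389), and stood at -0.01 with GC and length corrected. The median of all genes moved too, to 0.08, 0.04, 0.14 and -0.04 in these settings. Relative to the median, SNAPC3 on log2 TPM was at 0.07. SNAPC2 measured 5.48, 5.11 and 5.59 against 5.04, 4.25 and 4.95 CPM, a log2 change of -0.18 (interval -0.41 to 0.05, edgeR adjusted p = 0.195). SNAPC5 measured 22.5, 23.0 and 23.0 against 23.0, 21.9 and 20.7 CPM, a log2 change of -0.06 (interval -0.19 to 0.06, edgeR adjusted p = 0.410). SNAPC4, at 13.1, 11.4 and 9.40 against 16.8, 4.23 and 12.8 CPM, gave 0.00 with an interval from -1.46 to 1.47 (edgeR adjusted p = 0.998).

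The effects of siPOLR3A and ML60218 were then compared within a single fit over the 12 libraries. Agent, exposure time and control library all changed between the experiments and cannot be told apart here. The control groups differed as well, and each change is relative to its own control. Mean TPM in siControl and DMSO cells was 33.0 and 43.2 for TBP, 4.30 and 7.62 for SNAPC2, and 51.5 and 42.6 for SNAPC3. It was 21.7 and 16.4 for SNAPC1 and 43.4 and 49.4 for MAF1. After siPOLR3A, SNAPC2 stood at 6.61 TPM, below its DMSO mean, and SNAPC1 at 19.2 TPM, above its DMSO mean. After ML60218, SNAPC1 stood at 22.4 TPM and MAF1 at 45.4 TPM, each above its siControl mean. The difference, the siPOLR3A effect minus the ML60218 effect, was called for 5 of the 9 genes, 3 above and 2 below 0, beside 50.9% of all genes (24.5% above and 26.4% below). For SNAPC3 it was -0.99 (SE 0.0496, edgeR adjusted p = 3.26e-10). MAF1, which rose with siPOLR3A and fell with ML60218, had a difference of 0.56 (SE 0.0574, edgeR adjusted p = 8.84e-07), or 0.37 with GC and length corrected. SNAPC1, which went the other way, had a difference of -0.50 (SE 0.0807, edgeR adjusted p = 8.16e-05). SNAPC2 had a difference of 0.71 (SE 0.146, edgeR adjusted p = 0.000702). TBP rose in both experiments, more after siPOLR3A, with a difference of 0.31 (SE 0.0472, edgeR adjusted p = 4.39e-05). On log2 TPM that of TBP was 0.13 and not called (limma adjusted p = 0.205), or 0.26 relative to the median of all genes, which this setting moved to -0.13. Intervals of the difference reached from -0.13 to 0.20 for BRF1, from -0.12 to 0.39 for BRF2, from -0.32 to 0.02 for SNAPC5 and from -1.38 to 2.35 for SNAPC4. On log2 TPM the difference of SNAPC5 was -0.31 and called (limma adjusted p = 0.00171), or -0.18 relative to the median of all genes. Of the 9 genes, 3 were called in both experiments, as were 26.2% of all genes. TBP was called higher in both, as were 4.75%, and MAF1 and SNAPC1 were called in opposite directions, as were 13.9%.

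**Figure D3:**
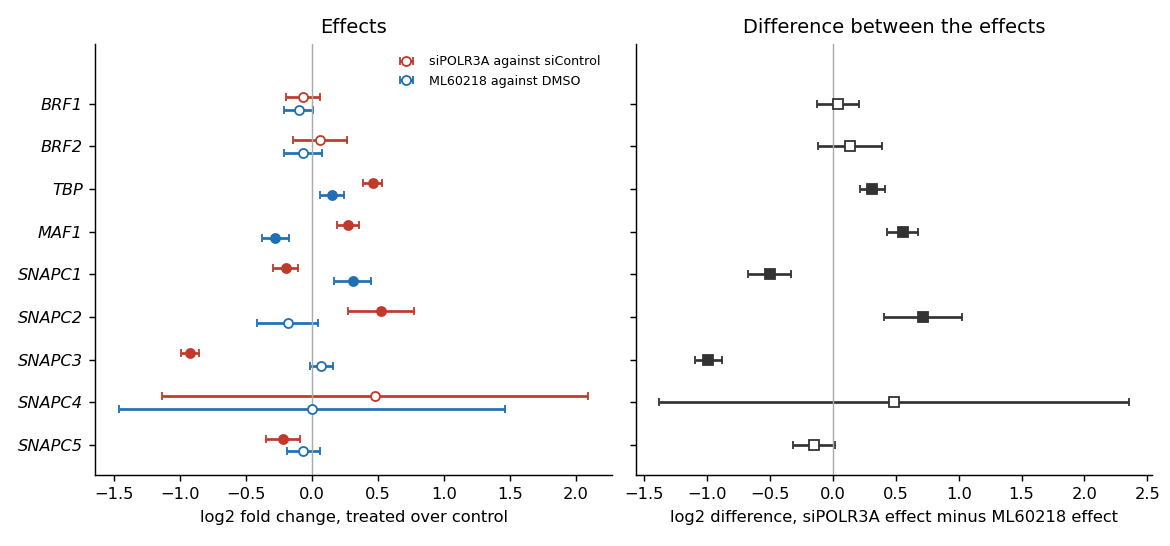
Left, log2 fold change of each gene after siPOLR3A (red) and ML60218 (blue); right, the difference between both effects. Bars are 95% intervals from edgeR and filled symbols passed the adjusted p threshold. SNAPC3 lies at -0.92 after siPOLR3A and 0.07 after ML60218, and the MAF1 and SNAPC1 effects fall on opposite sides of 0.

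The gene totals were followed to single transcripts for those that made up at least 10% of a gene's TPM, 21 transcripts in all. After siPOLR3A, 5 of these were called, beside 11.3% of all transcripts tested. Of SNAPC3, all 3 such transcripts fell: the protein-coding SNAPC3-202 from 21.04, 18.09 and 20.03 to 9.55, 8.16 and 9.54 TPM (log2 change of estimated counts -1.15, edgeR adjusted p = 0.000593), and SNAPC3-206 from 22.1, 21.8 and 23.3 to 10.6, 13.4 and 11.9 TPM (-0.94, edgeR adjusted p = 0.00236). SNAPC3-205 went from 6.75, 7.32 and 7.46 to 5.24, 5.22 and 5.95 TPM (-0.43, edgeR adjusted p = 0.0387). The annotation marks SNAPC3-205 and SNAPC3-206 as targets of nonsense-mediated decay, and SNAPC3-202 held 38.3 ± 2.00% of SNAPC3 TPM in siControl and 32.7 ± 3.31% in siPOLR3A cells (SD, n = 3). The call of SNAPC3-205 was lost without siControl replicate 2 or 3 and without any 1 of the 3 siPOLR3A libraries (edgeR adjusted p from 0.0686 to 0.126), and with no filter on low counts (0.0637). TBP-202, the main TBP transcript, rose from 17.0, 12.1 and 14.8 to 23.7, 20.7 and 24.0 TPM (0.60, edgeR adjusted p = 0.0267). MAF1-201, with 73.1% of MAF1 TPM, rose from 30.4, 30.3 and 32.8 to 39.4, 40.7 and 40.0 TPM (0.33, edgeR adjusted p = 0.0168). The call of TBP-202 was lost without siControl replicate 3 or any 1 siPOLR3A library (adjusted p from 0.0566 to 0.0966), and that of MAF1-201 without siControl replicate 2 or siPOLR3A replicate 2 or 3 (from 0.0642 to 0.0732). The 7885 calls over all transcripts became 4860 to 5206 with 1 library left out and 6161 with no filter.

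After ML60218, SNAPC3-202 was the 1 transcript of the 21 that was called, beside 2.09% of all transcripts (1474 transcripts). It measured 11.61, 11.03 and 11.28 TPM in DMSO and 14.8, 15.4 and 16.5 TPM in ML60218 cells (0.31, edgeR adjusted p = 0.0419). Leaving out any 1 of the 6 libraries ended the call, with edgeR adjusted p from 0.0707 to 0.170, and so did testing without the filter on low counts (0.0776). Calls over all transcripts fell at the same time: from 1474 to 0 without any 1 DMSO library or without ML60218 replicate 2, to 525 without ML60218 replicate 1, to 63 without replicate 3 and to 883 without the filter. The decay-annotated SNAPC3-206 measured 24.0, 24.2 and 22.1 against 21.7, 27.3 and 25.0 TPM, and those groups overlapped.

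**Figure D4:**
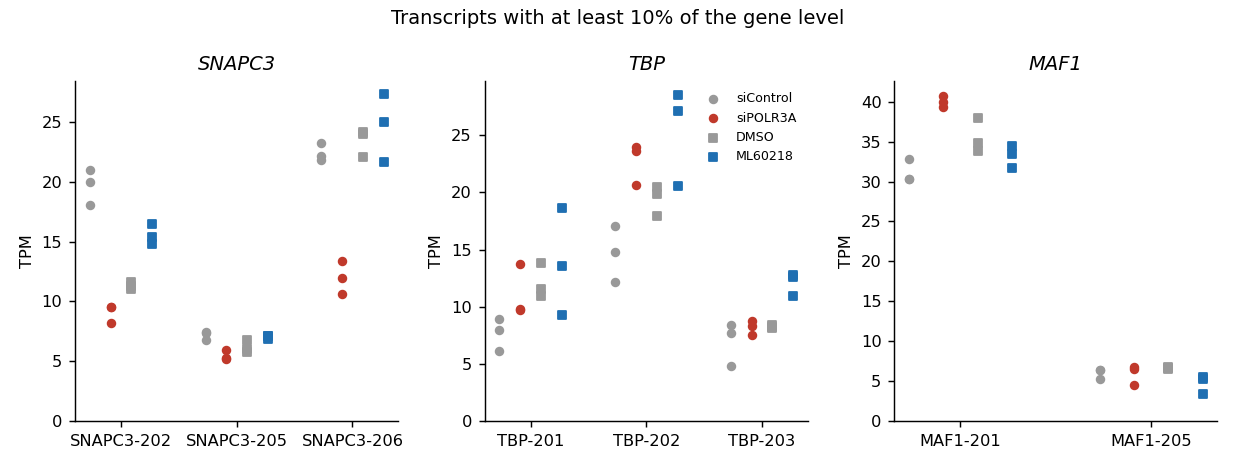
TPM in each library of the SNAPC3, TBP and MAF1 transcripts that hold at least 10% of the gene (circles for the siRNA experiment, squares for the compound experiment, controls in grey; axes start at 0). SNAPC3-202 and SNAPC3-206 fall after siPOLR3A, from means of 19.7 and 22.4 to 9.08 and 12.0 TPM, and after ML60218 SNAPC3-202 has a mean of 15.6 against 11.3 TPM in DMSO.

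Some neighbours and overlapping genes of the 10 were also called, beside 56.6% of all genes after siPOLR3A and 39.0% after ML60218. PSMB1, a proteasome subunit whose gene lies 960 bases from TBP on the opposite strand, fell after siPOLR3A (-0.29, edgeR adjusted p = 1.25e-07) and after ML60218 (-0.18, edgeR adjusted p = 0.00837), whereas TBP rose in both. On log2 TPM the second change of PSMB1 was not called (-0.04), with the median of all genes at 0.14 in that setting. PSIP1, which overlaps SNAPC3 on the other strand, fell after siPOLR3A by 0.49 on the log2 scale (edgeR adjusted p = 5.15e-10), as SNAPC3 did. MAP2K1, which overlaps SNAPC5 on the other strand, fell by 0.40 (edgeR adjusted p = 1.63e-07), and ADGRA2, which overlaps BRF2, fell by 0.59 (edgeR adjusted p = 5.79e-08). SHARPIN, which overlaps MAF1, rose by 0.27 (edgeR adjusted p = 0.00131), a call lost with GC and length corrected. CYC1, the gene before MAF1, fell after siPOLR3A (-0.15, edgeR adjusted p = 0.000401), whereas MAF1 rose. BTBD6 and PACS2, which overlap BRF1, were called higher after siPOLR3A (0.12 and 0.21, edgeR adjusted p = 0.0407 and 0.0460). BRF1 and BRF2 themselves were not called. HIF1A, the gene before SNAPC1, rose after siPOLR3A (0.31, edgeR adjusted p = 1.33e-07), whereas SNAPC1 fell. Neighbours not called after siPOLR3A included PDCD2 (0.02), RAB11FIP1 (-0.06), TTC39B (0.06), ENTR1 (-0.003) and TIPIN (-0.04). The library kit keeps strand, but the strand setting used in quantification is not given in the sources used here, and its part in the values of overlapping pairs was not tested.

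Genes known to act on these factors gave the following counts, to be read against the 56.6% of all genes called after siPOLR3A and the 39.0% called after ML60218, where the median log2 change of all genes was 0.01 in each. Of 16 regulators of TFIIIB and MAF1, 5 were higher and 8 lower after siPOLR3A (median -0.06), and 4 were higher and 4 lower after ML60218 (median 0.01). RBL2, a retinoblastoma relative that represses TFIIIB, fell from 145 ± 2.80 to 60.5 ± 1.30 CPM after siPOLR3A (log2 -1.26, edgeR adjusted p = 3.94e-13). RPTOR, a part of mTORC1, the kinase complex that phosphorylates MAF1, rose from 27.1 ± 0.918 to 42.3 ± 0.429 CPM (0.64, edgeR adjusted p = 9.05e-09) and fell after ML60218 (-0.22, edgeR adjusted p = 0.00769). The latter call was lost with total-count scaling (-0.15, adjusted p = 0.0624), with the offset for isoform length and on log2 TPM. CSNK2A2, a catalytic subunit of the TFIIIB kinase CK2, fell after siPOLR3A (-0.43, or -0.24 on log2 TPM), and PLK1 fell after ML60218 (-0.29, or -0.16 on log2 TPM). On log2 TPM the median of all genes was 0.03 after siPOLR3A and 0.14 after ML60218, where total-count scaling gave 0.08. The ML60218 count of 8 dropped to 4 without DMSO replicate 2, where all genes called fell from 6029 to 4159.

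Among the partners of TBP, all 4 SL1 subunits were called after siPOLR3A (56.6% of all genes), 3 higher and 1 lower (median 0.19), with TAF1C going from 52.0 ± 1.36 to 69.4 ± 0.108 CPM (0.42, edgeR adjusted p = 6.00e-08). After ML60218, where 39.0% of all genes were called, 1 of the 4 was (median 0.05), TAF1A (0.46, edgeR adjusted p = 0.00191). That count became 3 without ML60218 replicate 1, where all genes called rose from 6029 to 6501. Of 16 TFIID subunits and TBP regulators, 7 were higher and 5 lower after siPOLR3A (median -0.01). DR1, a repressor that binds TBP, fell from 184 ± 3.68 to 97.9 ± 1.61 CPM (-0.91, edgeR adjusted p = 3.33e-12). TAF13 rose (0.45) while its partner TAF11 fell (-0.71). After ML60218, 2 of the 16 were higher and 5 lower (median -0.08), TAF13 (-0.32) and TAF11 (-0.36) among them. That count of 7 fell to 4 without DMSO replicate 1, DMSO replicate 3 or ML60218 replicate 2. All genes called fell as well, from 6029 to 4329, 4396 and 5131. TBPL1, a relative of TBP, and GTF2B, the relative of BRF1 and BRF2, were both lower after ML60218 (-0.21 and -0.30, edgeR adjusted p = 0.00763 and 0.00157). On log2 TPM neither was called (-0.08 and -0.14), nor was TBPL1 with total-count scaling (-0.14). The median of all genes was 0.14 and 0.08 in those settings.

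Of 4 activators of SNAPc promoters, 1 was higher and 1 lower after siPOLR3A (median -0.05; 56.6% of all genes called), and 1 higher and 2 lower after ML60218 (median -0.02; 39.0% of all genes called). ZNF76, a zinc finger activator of small nuclear RNA promoters, fell from 46.7 ± 1.17 to 40.3 ± 1.15 CPM after siPOLR3A (-0.21, edgeR adjusted p = 0.000197) and rose from 27.7 ± 1.47 to 42.9 ± 2.74 CPM after ML60218 (0.63, edgeR adjusted p = 0.000156). Without DMSO replicate 1, DMSO replicate 2 or ML60218 replicate 2, only 1 of the 4 was called after ML60218. All genes called fell from 6029 to 4329, 4159 and 5131 in these fits. Of 18 genes for elongation and processing of small nuclear RNAs, 5 were higher and 6 lower after siPOLR3A (median -0.04), a share near that of all genes, with ICE2 (-0.86) and the Integrator subunit INTS8 (-0.84) among those that fell. After ML60218, 4 were higher, ZC3H8 (0.57) among them, and 3 lower (median 0.01), again near the share of all genes. INTS5 fell in both experiments, by 0.75 and 0.80 on the log2 scale. Of the 7 genes of TFIIIC and TFIIIA, which load TFIIIB, 3 were higher and 2 lower after siPOLR3A (median 0.00), and 1 higher and 4 lower after ML60218 (median -0.13). GTF3C2 fell in both (-0.44 and -0.26), and GTF3C6 rose after siPOLR3A (0.24) and fell after ML60218 (-0.27). On log2 TPM the ML60218 calls of TAF13, GTF3C2 and GTF3C6 were lost (-0.16, -0.12 and -0.12), with the median of all genes at 0.14. The 5 genes of TFIIIC and TFIIIA called after ML60218 became 3 without DMSO replicate 1 or 2, where all genes called fell to 4329 and 4159. Of the 11 subunits specific to Pol III, 3 were higher and 3 lower in each experiment (medians 0.00). Of all genes, 56.6% were called after siPOLR3A, near the share of these subunits, and 39.0% after ML60218, a lower share. The 3 lower subunits include POLR3A in both experiments, which is the target of the siRNA.

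By the correlation of log2 TPM over the 12 libraries among 14288 protein-coding genes, the pattern of TBP was most like those of SPIRE1 (r = 0.991) and ZNF549 (0.986), and that of MAF1 most like those of ABHD17A (0.975) and CDCA4 (0.973). For BRF1 the closest were PDF (0.936) and JOSD2 (0.932), and for BRF2 TRAPPC2 (0.961) and RRP12 (0.956). These values describe shared levels over 4 groups and share the same libraries and depth.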

How the data were processed

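Per the file headers, the deposited table holds for each library NumReads, an estimated count per transcript, and TPM, under the column names salmon writes. The program version, transcript release and strand setting are not given in the sources used here. The submitters' processing notes name bcl2fastq 2.20, Trim Galore, DESeq2 and the build hg38. Through GENCODE 29 on GRCh38, 158359 of 194142 transcripts (81.6%) were matched to 34318 genes. Unmatched transcripts held 8.37% to 8.97% of reads and were left out. Per gene, the deposited estimated counts were added up and rounded to whole numbers, and the deposited TPM values, made by the authors, were summed per gene. Fits used edgeR 4.0.16 in R 4.3.3 (filterByExpr with minimum count 10 and total 15, TMM, robust quasi-likelihood test, two-sided, Benjamini-Hochberg). The alternatives used DESeq2 1.42.0, limma 3.58.1 on log2(TPM + 0.1), other scalings, no filter, GC and length correction, isoform offsets, all 12 libraries, the replicate block and each library left out. On simulated data over 15404 genes for the siRNA comparison, 32 of 100 genes changed 1.2-fold and 82 of 100 changed 1.5-fold were recovered. Over 15461 genes for the compound comparison it was 34 and 79 of 100. The remaining genes were simulated without a change and at a fixed spread, unlike the data. The genes, lists and tests were chosen with earlier results of these data known. Named were all 10 genes, at most 4 genes per other list with the smallest p in a comparison, transcripts with at least 10% of a gene's TPM, the 2 most similar genes for TBP, MAF1, BRF1 and BRF2, and adjacent genes. Overlapping genes were named after their values were seen. Some genes that the rule names are not reported here. An exact permutation test of 3 against 3 libraries cannot go below p = 0.1.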

Additional observations from a re-analysis of the deposited data

Results flagged for a closer look

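For 5 genes the response to siPOLR3A differed from the response to ML60218 by edgeR's test of the difference itself, which called 50.9% of all genes; 5 of 9 is near that share. The log2 effect of siPOLR3A less that of ML60218 was -0.99 for SNAPC3, 0.71 for SNAPC2, 0.56 for MAF1, -0.50 for SNAPC1 and 0.31 for TBP. SNAPC3 fell in 3 of 3 siPOLR3A libraries relative to every control library, and was not called after ML60218 (0.07, edgeR adjusted p = 0.168). The agents, durations and controls of the experiments cannot be told apart.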

How the results depend on the processing

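Directions and calls of SNAPC3, TBP, MAF1, SNAPC2 and SNAPC5 after siPOLR3A were the same under all 17 alternatives, and so was the ML60218 rise of SNAPC1. The number of the 9 genes called stayed within 1.5 times its reported value under all alternatives in the 3 comparisons. Changes near 0 took the other sign under some settings. After siPOLR3A, BRF1 gave 0.057 on log2 TPM and 0.032 with the isoform offset, and BRF2 ranged from -0.011 (without siPOLR3A replicate 3) to 0.158 with 1 library left out. After ML60218, log2 TPM gave 0.020 for BRF1, 0.145 for BRF2, -0.069 for SNAPC4 and 0.074 for SNAPC5. Relative to the median of all genes, which was 0.139 in that setting, these were -0.118, 0.007, -0.208 and -0.065. The isoform offset gave 0.012 for BRF2 and -0.0023 for SNAPC4, total-count scaling 0.0048 for BRF2 and 0.0077 for SNAPC5, no filter -0.0040 for SNAPC4, and the GC and length correction -0.011 for SNAPC3. The median of all genes was 0.076 with total-count scaling and -0.036 with the GC and length correction. SNAPC4 ranged from -0.39 to 0.39 with 1 library left out. For the difference, BRF1 gave -0.12 with the GC and length correction and from -0.012 to 0.079 with 1 library left out. BRF2 gave -0.045 on log2 TPM, or 0.085 relative to the median of all genes. The cause was not tested. Among called genes, the share that was higher after ML60218 was 46.4%, but 82.5% on log2 TPM, 67.0% with total-count scaling, 58.6% with upper-quartile scaling and 34.0% with the GC and length correction. After siPOLR3A it was 48.4%, and 58.7% with upper-quartile scaling.

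The libraries share only a replicate number, and same-numbered libraries did not deviate together (correlations of their deviations from -0.0719 to 0.0726). With the replicate number as a block, the member transcripts called went from 5 to 3 after siPOLR3A (MAF1-201 at edgeR adjusted p = 0.0601 and SNAPC3-205 at 0.105) and from 1 to 0 after ML60218 (SNAPC3-202 at 0.203), while all transcripts called went from 7885 to 2870 and from 1474 to 0, and SNAPC4 after ML60218 was -0.15. The 6, 3 and 5 genes called did not change in number. With 1 library left out, 2 to 5 transcripts were called after siPOLR3A and 0 after ML60218 for each library left out, and with no filter 0 after ML60218. In simulated data, 1.2-fold changes were mostly missed. There 100 genes were changed per fold size, far fewer than were called in the data. The adjusted p cutoff was stricter as a result, so these shares do not carry over to the data.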

Other observations

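SNAPC4 and the 5 unmatched transcripts beside it in the table, looked at after their values were seen, varied against each other within groups while their sum was steady. The 7 transcripts together gave 13.6, 12.7 and 12.7 TPM in siControl and 17.4, 17.2 and 17.4 TPM in siPOLR3A cells, and 14.4, 14.7 and 15.1 TPM in DMSO and 14.2, 13.7 and 13.1 TPM in ML60218 cells. Alone, SNAPC4 ranged from 1.15 to 3.93, from 2.16 to 4.96, from 3.004 to 4.401 and from 1.51 to 5.80 TPM in the same groups. The 5 transcripts are not assigned to a gene here, and the sums were not tested.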
